A study of Homo sapiens with 28 samples.

Results

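The 2 small interfering RNAs against ATF4 used in this series, siATF4-2 and siATF4-3, were compared directly with each other in LNCaP cells under endoplasmic reticulum (ER) stress. The comparison took the 4 libraries of TM siATF4-2 and the 4 libraries of TM siATF4-3, 8 of the 28 libraries in 7 groups, and all genes. LNCaP is an established human metastatic prostate cancer line with a luminal, androgen-responsive character. All 8 cultures received 1 ATF4 siRNA by reverse transfection and, beginning 2 days later, tunicamycin at 2.5 ug/mL for 18 h. Tunicamycin (TM) blocks the first step of N-linked glycan assembly and so leaves misfolded glycoproteins in the ER. The reference group, TM siCtrl, had a control siRNA with the same tunicamycin treatment, and DMSO siCtrl had the control siRNA with the solvent alone. The remaining 3 groups, used for the spread and as further tunicamycin libraries, had tunicamycin with the control siRNA and a PERK inhibitor at 100 nM, with siPERK-1 or with siPERK-3 (PERK siRNAs). The sample titles number the ATF4 oligos 2 and 3, whereas the treatment labels call them oligo 1 and oligo 2. The names of the titles are used here. No ATF4 siRNA library without tunicamycin was analysed here, so each value describes the oligos in stressed cells.

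ATF4 is a basic leucine zipper transcription factor of the integrated stress response. Under ER stress the kinase PERK phosphorylates eIF2 alpha, general translation falls, and ATF4 mRNA is translated more. ATF4 then raises genes for amino acid uptake and synthesis, tRNA charging, redox balance and cell death, in part as dimers with C/EBP proteins at C/EBP-ATF response elements. A siRNA guides an Argonaute protein to complementary transcripts. A partial match, often through the seed of the guide strand, can also lower other transcripts, which is why studies use more than 1 oligo per target.

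The libraries held 12014347 to 13608748 assigned read counts with siATF4-2 and 10794637 to 13664563 with siATF4-3, against 14052883 to 17253801 in TM siCtrl. Levels are given as CPM, read counts relative to library size, scaled by the trimmed mean of M values, and differences as log2 siATF4-2 minus siATF4-3, with the standard error from edgeR. A gene was called at a Benjamini-Hochberg adjusted p under 0.05 over the 14314 genes tested. The 8 luminal markers summed to 3707 to 4024 CPM with siATF4-2 and 3992 to 4211 CPM with siATF4-3. Basal, leukocyte and endothelial marker sums stayed under 1 CPM in each of the 8 libraries, and TP63, CD3E and CDH5 were at 0 in all of them. The neuroendocrine markers summed to 1.26 to 2.70 CPM. The fibroblast and mesenchymal markers summed to 42.8 to 55.1 CPM with siATF4-2 and 47.1 to 52.0 CPM with siATF4-3, carried by VIM and COL1A1, while COL1A2 was at 0. Replicate 4 stood apart in both oligo groups, and ATF4 itself was highest there. ATF4 was also highest in replicate 4 of DMSO siCtrl, at 722.3 CPM against 539.1 to 613.4 in the others. In TM siCtrl it was not, at 1516 CPM in replicate 4 and 1561 in replicate 3. What sets replicate 4 apart was not tested. Many of the counts given below are printed again without the replicate 4 libraries of both oligos. Where no second count is given, the count may also have moved.

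ATF4 transcript was higher with siATF4-2 than with siATF4-3. ATF4 (22:39916564-39918691, plus strand, hg19) stood at 1478, 1486, 1561 and 1516 CPM in the 4 TM siCtrl libraries. With siATF4-2 it was 220.9, 193.5, 176.4 and 357.5 CPM in replicates 1 to 4, and with siATF4-3 it was 115.3, 98.4, 102.1 and 140.3 CPM. The lowest siATF4-2 library lay above the highest siATF4-3 library, and both groups lay below all 4 DMSO siCtrl libraries (539.1 to 722.3 CPM). Relative to the TM siCtrl mean, 15.7% of the transcript was left with siATF4-2 and 7.55% with siATF4-3, while the unstressed cells stood at 40.1%. The log2 difference between the oligos was 1.06 ± 0.16 (SE, n = 4 and 4; edgeR quasi-likelihood adjusted p = 6.10e-05). Without both replicate 4 libraries it was 0.91 ± 0.09. A fit of the 8 oligo libraries alone gave 1.05 and did not pass (adjusted p = 0.0541). In bulk RNA, fewer cells carrying a transcript and less transcript per cell cannot be told apart. Only RNA was measured, and ATF4 protein was not.

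FAM129A and EIF2AK3 were measured in the same libraries, and no group of this series had a siRNA against FAM129A. FAM129A, also known as NIBAN1, a stress-induced regulator of translation and of mTOR signalling, was at 51.5, 57.5, 36.7 and 75.5 CPM with siATF4-2 and at 14.4, 12.9, 8.87 and 22.2 CPM with siATF4-3. The groups did not overlap, and the difference was 1.91 ± 0.22 (edgeR adjusted p = 2.53e-06). FAM129A kept 29.6% of its TM siCtrl level with siATF4-2 and 7.81% with siATF4-3. EIF2AK3, which encodes PERK, was at 92.5 to 107.6 CPM with siATF4-2 and 79.2 to 83.6 CPM with siATF4-3, a difference of 0.31 ± 0.07 (edgeR adjusted p = 0.000769). Against TM siCtrl, EIF2AK3 rose by 0.17 on the log2 scale with siATF4-2 and differed by -0.14 with siATF4-3, which did not pass.

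**Figure D1:**
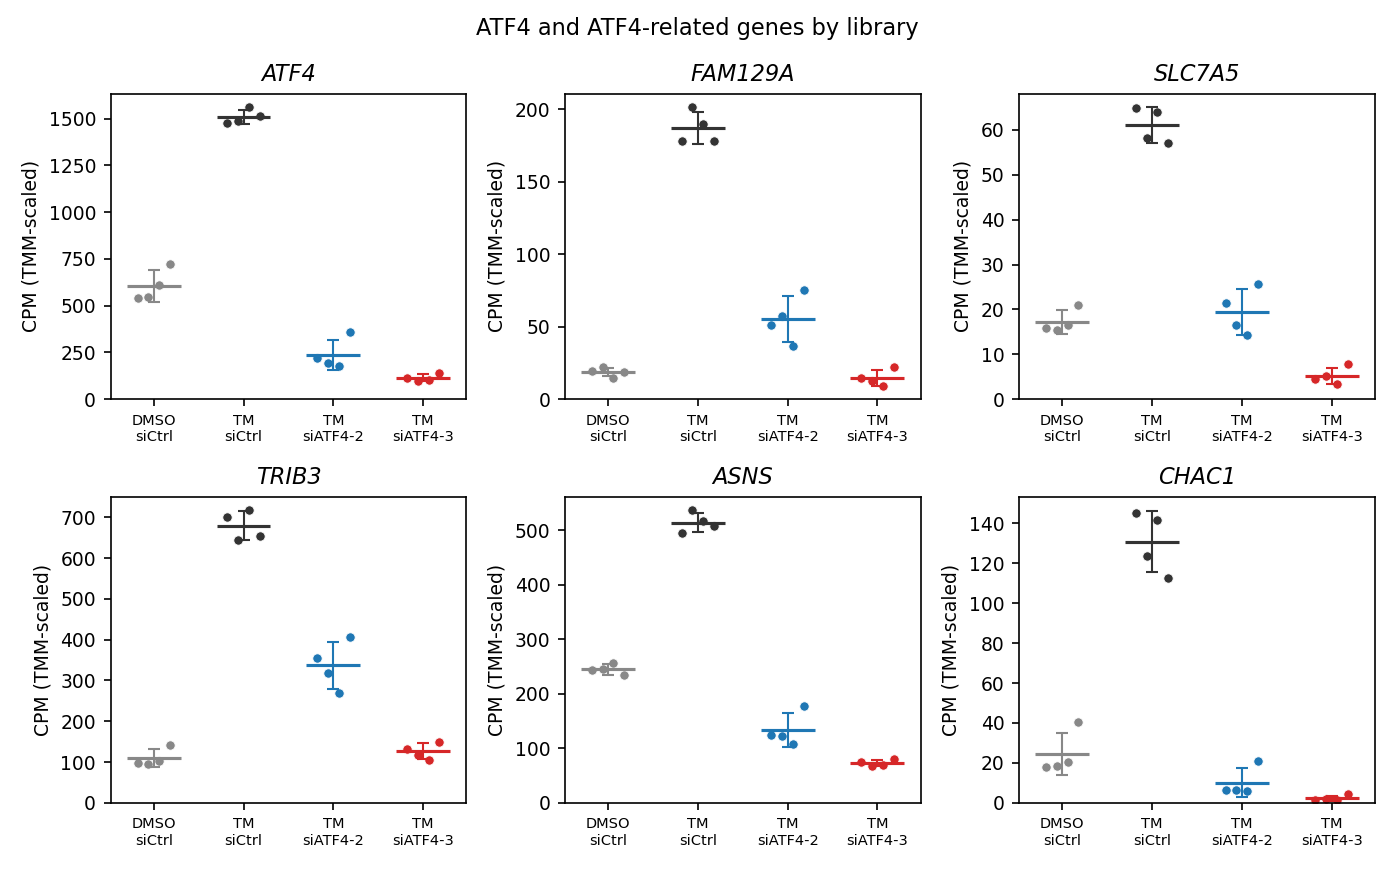
CPM (TMM-scaled, linear axis from 0) of ATF4 and 5 genes of amino acid and stress metabolism in the 4 libraries each of DMSO siCtrl, TM siCtrl, TM siATF4-2 and TM siATF4-3. Points are libraries, horizontal lines are means and bars are 1 SD. In each panel the siATF4-3 points lie below the siATF4-2 points, and both lie below TM siCtrl.

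Between the oligos, 1221 genes (8.53% of those tested) were higher with siATF4-2 and 888 (6.20%) were lower, 2109 in all (14.7%). The 4 and 4 libraries did not overlap at 1320 genes with siATF4-2 higher (9.22%) and at 1038 with siATF4-2 lower (7.25%). Of the called genes, 94 were higher and 18 lower by at least 2-fold. The count of 94 was 51 without siATF4-2 replicate 4 and 57 without replicate 4 of both oligos. In the latter fit the 1221 became 816 and the 888 became 554. For scale, the pair of PERK siRNAs of the same series differed at 677 genes (4.73%). Against TM siCtrl, 7960 genes (55.6%) were called with siATF4-2, 4061 higher (28.4%) and 3899 lower (27.2%). With siATF4-3 the calls were 8862 (61.9%), 4461 higher (31.2%) and 4401 lower (30.7%). These 2 comparisons share the TM siCtrl libraries.

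The direction of the difference followed how a gene responded to both oligos together. The mean of both oligos against TM siCtrl is a contrast independent of their difference at equal group size and equal spread. Equal spread need not hold for every gene. The CHAC1 SE against TM siCtrl, for example, was 0.284 with siATF4-2 and 0.365 with siATF4-3. The mean contrast called 9109 genes (63.6%). Of the 4523 called lower (31.6%), 1002 were lower still with siATF4-3 while 68 were lower with siATF4-2. Among the 740 genes lowered by at least 2-fold, 264 (35.7%) were lower with siATF4-3. ASS1, the argininosuccinate synthase of arginine synthesis, was the only one of the 740 called in the other direction, at a log2 difference of -0.25. The median log2 difference over the 740 was 0.43, beside 0.01 over all genes tested. Their median change against TM siCtrl was -1.27 with siATF4-2 and -1.66 with siATF4-3. On the raised side, 4586 genes (32.0%) were called higher with the mean of both oligos. Of them 668 were higher with siATF4-3 and 68 with siATF4-2. Among the 298 raised by at least 2-fold, 73 (24.5%) were higher with siATF4-3. DHRS2, a short-chain dehydrogenase, and GLI3, a Hedgehog pathway transcription factor, were the 2 of the 298 called higher with siATF4-2, at 0.81 and 0.38. ASS1, DHRS2 and GLI3 were picked out after their values were seen. The 5205 genes without a call in the mean contrast split evenly, with 151 higher and 152 lower with siATF4-2.

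Without replicate 4 of both oligos, 662 genes lowered by the mean were lower with siATF4-3 and 66 with siATF4-2, and 390 raised genes were higher with siATF4-3 and 62 with siATF4-2. In that fit, 211 of 870 genes lowered by at least 2-fold and 43 of 332 raised by at least 2-fold were lower and higher, respectively, with siATF4-3. Leaving out siATF4-2 replicate 4 alone moved the 668 to 410 and the 68 raised genes that were higher with siATF4-2 to 107. Sorting genes by the tunicamycin response in control siRNA cells, which uses no ATF4 siRNA library, gave the same arrangement. In that contrast 9883 genes (69.0%) were called, 4909 higher (34.3%) and 4974 lower (34.7%). Of the 1215 genes raised at least 2-fold by tunicamycin, 480 (39.5%) were higher with siATF4-2 and 3 lower. Of the 1041 lowered at least 2-fold, 18 were higher and 158 (15.2%) lower. With both replicate 4 libraries left out, the main counts were 350 of 1244 and 89 of 1081. The 3 exceptions, MCFD2, SGPP1 and C6orf48, stood at -0.59, -0.39 and -0.34 and were named after their values were seen. MCFD2 is a cargo receptor partner of ER-to-Golgi transport and SGPP1 a sphingosine phosphate phosphatase.

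**Figure D2:**
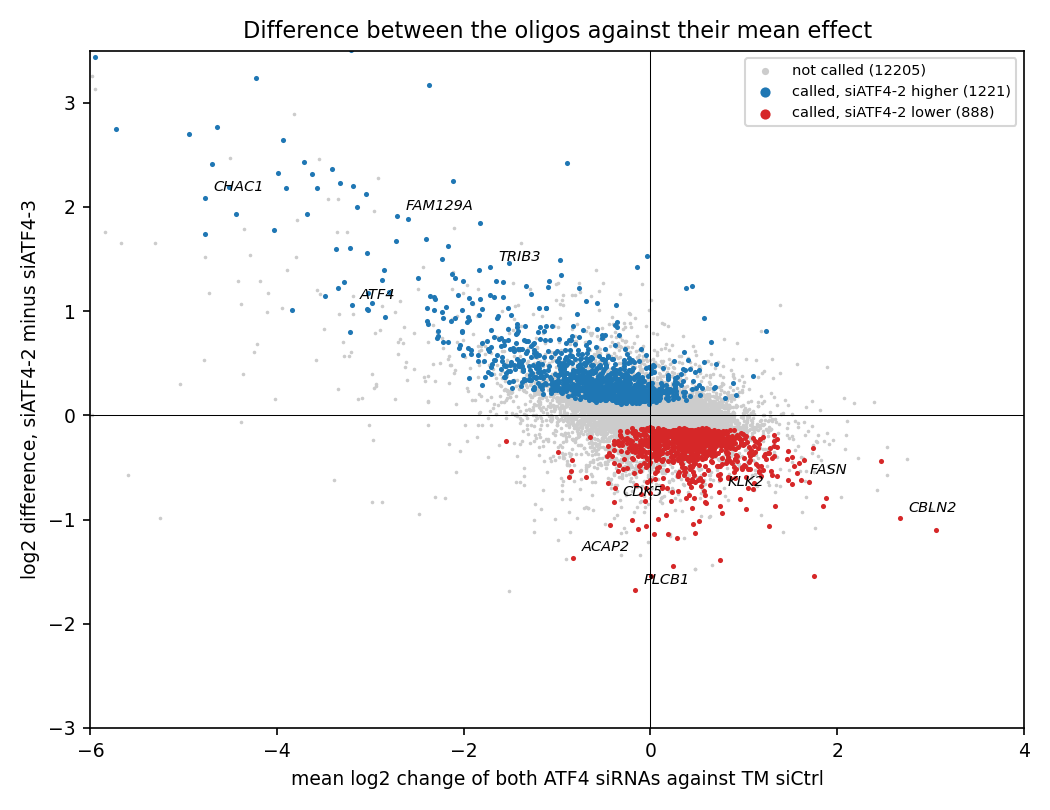
Each point is 1 gene. The x axis is the mean log2 change of both ATF4 siRNAs against TM siCtrl and the y axis the log2 difference siATF4-2 minus siATF4-3, and 7 of the 14314 genes lie outside the axes. The 1221 genes called higher with siATF4-2 lie mostly left of 0 and the 888 called lower mostly right of 0, with PLCB1 and CDK5 close to the vertical line.

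Transcription factors that share the ATF4 dimer network were higher with siATF4-2. Of 17 members of the basic leucine zipper list that were tested, 11 were higher with siATF4-2, none was lower, and the median difference was 0.30. The count of 11 was 10 without both replicate 4 libraries. ATF3, a stress-induced repressor and activator, was at 137.5, 144.7, 117.9 and 168.7 CPM with siATF4-2 and at 65.8, 67.1, 60.6 and 64.3 CPM with siATF4-3. Its groups were far apart, with a difference of 1.14 ± 0.15 (edgeR adjusted p = 1.68e-05). CEBPB, a C/EBP partner of ATF4, differed by 1.03 ± 0.16, at 33.0 to 43.2 CPM with siATF4-2 and 18.7 to 19.7 CPM with siATF4-3. CEBPG, another C/EBP partner, showed a different arrangement. It stood at 171.0 to 191.9 CPM with siATF4-2, 93.2% of the TM siCtrl mean and not called against it, and at 104.4 to 114.4 CPM with siATF4-3, 54.7% of that mean. DDIT3, the stress factor CHOP, behaved likewise, with changes against TM siCtrl of -0.15 for siATF4-2 and -0.89 for siATF4-3 and a difference between the oligos of 0.74 ± 0.15 (edgeR adjusted p = 0.00125). DDIT3 was named after its values were seen. ATF5, a further basic leucine zipper factor of this response, was not called between the oligos (0.03 ± 0.13, edgeR adjusted p = 0.901), with a sign that changed when siATF4-2 replicate 4 was left out, and 28.7% and 27.9% of its TM siCtrl level was left. ATF5 overlaps other annotated genes, so part of its reads may be theirs.

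Stress effectors downstream of ATF4 and CHOP were the list with the highest median, 0.50, with 18 of 29 tested members higher with siATF4-2 and 1 lower. With both replicate 4 libraries left out these counts were 17 and 1. The exception was C6orf48, a snoRNA host transcript, at -0.34. TRIB3, a pseudokinase that restrains AKT and feeds back on ATF4, was at 354.2, 317.1, 269.8 and 407.4 CPM with siATF4-2 and at 130.8, 118.4, 104.0 and 150.2 CPM with siATF4-3. No TRIB3 value of the 2 groups overlapped, and the difference was 1.42 ± 0.14 (edgeR adjusted p = 1.42e-07). SESN2, a stress-induced inhibitor of mTORC1, was at 53.2 to 77.2 CPM with siATF4-2 and 23.2 to 29.9 CPM with siATF4-3, a difference of 1.32 ± 0.16. CHAC1, a glutathione-degrading enzyme, was at 6.63, 6.59, 5.83 and 20.96 CPM with siATF4-2 and at 1.53, 1.92, 1.43 and 4.29 CPM with siATF4-3, against 112.6 to 145.0 CPM in TM siCtrl. Replicate 4 was the highest CHAC1 library of both oligos. The CHAC1 difference of 2.09 ± 0.51 (edgeR adjusted p = 0.00698) was 1.45 without siATF4-2 replicate 4 (adjusted p = 0.0402) and did not pass in the fit of 8 libraries (adjusted p = 0.102). DDIT4, an mTORC1 inhibitor named after its values were seen, fell by 2.25 with siATF4-2 and by 2.62 with siATF4-3 on the log2 scale, and the difference of 0.37 ± 0.22 did not pass. Over the 29 effectors, the median level left was 45.9% of TM siCtrl with siATF4-2 and 32.8% with siATF4-3, whereas over all genes it was 99.95% with either. Less than 50% of the TM siCtrl level was left for 17 effectors with siATF4-2 and for 23 with siATF4-3.

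Amino acid transporters and synthetic enzymes showed the same ordering. Of 20 transporters tested, 11 were higher with siATF4-2, 1 was lower, and the median was 0.28. The 11 became 10 without both replicate 4 libraries. SLC7A5, the light chain of the LAT1 exchanger for large neutral amino acids, was at 21.4, 16.6, 14.2 and 25.7 CPM with siATF4-2 and at 3.32 to 7.77 CPM with siATF4-3. The lowest siATF4-2 library was above every siATF4-3 library, and the difference was 1.88 ± 0.19 (edgeR adjusted p = 1.97e-07). SLC7A11, the cystine importer xCT, differed by 1.32 ± 0.20 and SLC1A5, a glutamine transporter, by 1.04 ± 0.12. SLC6A9, the glycine transporter GLYT1, differed by 1.56 ± 0.20, and it overlaps CCDC24. SLC7A2, a cationic amino acid transporter, was the 1 lower member, at -0.31. Of the TM siCtrl level, SLC1A5 kept 31.4% with siATF4-2 and 15.2% with siATF4-3, and SLC7A5 kept 31.9% and 8.51%. Of 22 enzymes of amino acid synthesis and one-carbon metabolism, 10 were higher with siATF4-2 and GLUL, glutamine synthetase, was lower, at -0.15. Leaving out both replicate 4 libraries gave 11 higher. PHGDH, which opens serine synthesis, was at 204.9 to 330.1 CPM with siATF4-2 and 115.4 to 160.3 CPM with siATF4-3, a difference of 0.93 ± 0.10. ASNS, asparagine synthetase, was at 124.7, 123.2, 108.1 and 177.8 CPM with siATF4-2 and at 75.0, 67.6, 69.0 and 79.7 CPM with siATF4-3, a difference of 0.87 ± 0.09 (edgeR adjusted p = 2.89e-07). PSAT1, the next enzyme of serine synthesis, differed by 0.71 ± 0.10 and MTHFD2, a mitochondrial folate enzyme, by 0.69 ± 0.08.

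Cytosolic aminoacyl-tRNA synthetases, which charge tRNAs, were higher with siATF4-2 for 12 of 20 members, with a median of 0.35. The 12 became 11 without both replicate 4 libraries. GARS, for glycine, was at 308.4 to 489.0 CPM with siATF4-2 and 164.9 to 215.2 CPM with siATF4-3 and differed by 1.08 ± 0.10. YARS, CARS and SARS, for tyrosine, cysteine and serine, differed by 0.86 ± 0.06, 0.85 ± 0.08 and 0.81 ± 0.06. DARS, for aspartate, and QARS, for glutamine, were lower with siATF4-2, at -0.26 and -0.19. The mitochondrial synthetases gave 1 call in 17, a higher one, and a list median of -0.03.

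Because genes known as ATF4 targets moved together, their promoters were searched for the core letters of the C/EBP-ATF response element, TGATGNAA, on either strand of the 250 bases before the start. Of 27305 RefSeq promoters (GRCh38.p14), 870 (3.19%) held the letters. These include genes not tested here, and of 11163 tested genes with a promoter entry, 169 (1.51%) held them. Of the named genes, 82 had a promoter entry and 4 held the letters. The named genes were chosen largely by their values in these data, so this count is a description. Their upstream sequences are printed 5′ to 3′ on the strand of the gene, with the matching bases in capitals.
ASNS (chr7:97872409-97872658, minus strand): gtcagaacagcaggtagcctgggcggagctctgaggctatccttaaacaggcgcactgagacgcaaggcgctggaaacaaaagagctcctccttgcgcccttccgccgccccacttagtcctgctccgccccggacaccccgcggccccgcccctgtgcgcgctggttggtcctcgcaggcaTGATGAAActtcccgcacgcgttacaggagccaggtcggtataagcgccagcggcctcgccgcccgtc
ATF3 (chr1:212565157-212565406, plus strand): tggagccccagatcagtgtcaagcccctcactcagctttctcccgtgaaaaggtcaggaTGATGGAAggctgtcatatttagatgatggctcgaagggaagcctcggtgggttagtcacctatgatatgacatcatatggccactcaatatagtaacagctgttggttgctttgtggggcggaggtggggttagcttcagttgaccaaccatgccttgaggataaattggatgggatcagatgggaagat
CHAC1 (chr15:40953221-40953470, plus strand): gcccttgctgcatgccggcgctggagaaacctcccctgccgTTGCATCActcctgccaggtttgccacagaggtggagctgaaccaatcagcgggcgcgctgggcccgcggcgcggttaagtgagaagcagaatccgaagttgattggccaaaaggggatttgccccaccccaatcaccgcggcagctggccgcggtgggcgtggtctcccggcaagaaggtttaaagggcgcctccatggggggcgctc
HERPUD1 (chr16:56931892-56932141, plus strand): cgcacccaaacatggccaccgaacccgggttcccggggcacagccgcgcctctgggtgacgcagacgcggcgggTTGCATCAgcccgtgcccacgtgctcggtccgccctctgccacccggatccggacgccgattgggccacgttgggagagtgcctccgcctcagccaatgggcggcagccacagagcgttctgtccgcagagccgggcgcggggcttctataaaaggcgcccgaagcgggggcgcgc
The match began 68 bases before the ASNS start and 191 bases before that of ATF3, on the strand of the gene. In CHAC1 and HERPUD1 it lay on the other strand, 209 and 176 bases before the start. TRIB3, SESN2, SLC7A5 and FAM129A had no match in this window. These matches are letters in a sequence and were not measured as bound sites. Set shares were not read, since fewer than 80% of the tested genes had a promoter entry.

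Genes of ER chaperones, ER-associated degradation and the secretory pathway were also called higher with siATF4-2, with list medians of 0.13 to 0.15. How much of this goes through ATF4 and how much through other arms of the unfolded protein response was not tested. Of 28 ER chaperones and folding enzymes, 11 were higher with siATF4-2, none was lower, and the median was 0.14. The count was also 11 without both replicate 4 libraries. HSPA5, the chaperone BiP, was at 6254, 6402, 5335 and 6682 CPM with siATF4-2 and at 5044, 4652, 4653 and 4865 CPM with siATF4-3, groups that did not overlap, a difference of 0.36 ± 0.09 (edgeR adjusted p = 0.00561). CLGN, a lectin chaperone, led the list at 0.66 ± 0.09. In ER-associated degradation, 10 of 22 members were higher, or 7 without both replicate 4 libraries, and none lower. HERPUD1, a ubiquitin-like scaffold of the degradation complex, was at 906.1, 871.2, 765.9 and 885.8 CPM with siATF4-2 and at 553.7, 514.2, 487.3 and 528.0 CPM with siATF4-3. HERPUD1 kept 70.0% of its TM siCtrl level with siATF4-2 and 42.5% with siATF4-3, a difference of 0.72 ± 0.06 (edgeR adjusted p = 3.05e-10). Of 36 secretory pathway genes, 20 were higher with siATF4-2, or 12 without both replicate 4 libraries, and none lower. These differences were small, and the median over the list was 0.13. ERN1, which encodes the sensor IRE1, was at 38.0 to 48.8 CPM with siATF4-2 and 22.1 to 29.9 CPM with siATF4-3, a difference of 0.72 ± 0.09. XBP1, the transcription factor that IRE1 activates by splicing, differed by 0.18 ± 0.05 (edgeR adjusted p = 0.00553) and was named after its values were seen.

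Among redox, autophagy and death genes the calls were mixed, to be read beside 8.53% higher and 6.20% lower over all genes. In the list of NRF2, glutathione and iron genes, 8 of 22 were higher with siATF4-2 and 1, GSR, was lower. FTH1, the ferritin heavy chain, was at 1362 to 2146 CPM with siATF4-2 and 949.7 to 1160 CPM with siATF4-3, a difference of 0.75 ± 0.10. NQO1 differed by 0.55 ± 0.09 and GCLM, of glutathione synthesis, by 0.49 ± 0.08. BEST1, a chloride channel gene whose annotated span overlaps that of FTH1, differed by 1.84 ± 0.17, and its reads and those of FTH1 may be mixed. Of 26 autophagy and lysosome genes, 9 were higher and none lower. MAP1LC3B, the autophagosome protein LC3B, was at 48.7 to 81.9 CPM with siATF4-2 and 34.8 to 41.8 CPM with siATF4-3, a difference of 0.81 ± 0.13. In the BCL2 and death list, 5 of 26 were higher (19.2%) and 2 lower (7.69%), the latter near the share over all genes. PMAIP1, the BH3-only protein NOXA, differed by 0.86 ± 0.16, and TNFRSF10B, the death receptor DR5, by 0.44 ± 0.08. BBC3, the BH3-only protein PUMA, was at 99.2% of TM siCtrl with siATF4-2 and 68.3% with siATF4-3, a difference of 0.53 ± 0.14. Of 29 p53 targets, 8 were higher and 2 lower, or 5 and 1 without both replicate 4 libraries, and GADD45A led at 0.85 ± 0.13. SESN2, TNFRSF10B and BBC3 are members of both a p53 and a stress list.

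Androgen-regulated and luminal genes were lower with siATF4-2 for 12 of 31 members and higher for 5, with a median of -0.23. With both replicate 4 libraries left out these counts were 9 and 4. Tunicamycin lowered KLK2, a prostate kallikrein, by 2.74 on the log2 scale in control siRNA cells. KLK2 was at 66.8 to 85.0 CPM in TM siCtrl, 93.3, 80.8, 109.6 and 104.2 CPM with siATF4-2, and 146.4, 150.8, 166.6 and 184.2 CPM with siATF4-3. One siATF4-2 library lay within the range of TM siCtrl, and every siATF4-3 library lay above all siATF4-2 libraries. Against TM siCtrl, KLK2 rose by 0.37 with siATF4-2 and 1.11 with siATF4-3, and the oligos differed by -0.74 ± 0.14 (edgeR adjusted p = 0.000735). PMEPA1, an androgen- and TGF-beta-induced membrane protein, differed by -0.73 ± 0.13 and MAF, a transcription factor, by -0.80 ± 0.20. KLK3, which encodes PSA, differed by -0.35 ± 0.24, which did not pass, and was named after its values were seen. KRT8 and KRT18, luminal keratins, were among the 5 higher members, at 0.20 and 0.19.

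Fatty acid synthesis genes also stood lower with siATF4-2, with 7 of 18 called lower and 1 higher, and a median of -0.20. FASN, fatty acid synthase, was at 1295, 1036, 1314 and 1261 CPM with siATF4-2 and at 1726, 1787, 1848 and 2186 CPM with siATF4-3, against 434.8 to 584.1 CPM in TM siCtrl. Both oligos thus lay above the stressed control and siATF4-3 lay highest, with a difference of -0.62 ± 0.13 (edgeR adjusted p = 0.002). ACSL3, an acyl-CoA synthetase, was at 103% of TM siCtrl with siATF4-2 and 131% with siATF4-3. Cholesterol genes gave 3 lower calls in 25 and none higher, and 2 of them, MSMO1 and TMEM97, lost the call in several alternatives. In the cell cycle lists every call was higher with siATF4-2. DNA replication genes gave 1 call in 33 (3.03%), CDC6 at 0.31 ± 0.07. Mitotic genes gave 3 calls in 32 (9.38%), near the 8.53% higher over all genes. Without both replicate 4 libraries each of these lists gave 2 calls. Ribosomal protein genes gave 10 lower calls and none higher among 61, all small, and 14 lower calls without both replicate 4 libraries. RPL11 was at 790.3 to 878.1 CPM with siATF4-2 and 902.4 to 972.3 CPM with siATF4-3, a difference of -0.17 ± 0.04.

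Some genes were called against TM siCtrl with only 1 of the oligos. Of the 2109 calls, 156 were genes that siATF4-2 changed against TM siCtrl while siATF4-3 was not called, 72 lowered and 84 raised. The reverse held for 445, 236 lowered and 209 raised. Such genes can still follow the ordering above. CEBPG, for example, was lowered with siATF4-3 (-0.87) and not called with siATF4-2 (-0.10). Without siATF4-2 replicate 2 the 156 became 98. These are calls beside missed calls, and the tested quantity is the direct difference. At 1.5-fold or more in the direct comparison, 10 of the 156 and 60 of the 445 passed. ACAP2 (3:194995465-195163817, minus strand, hg19), a GTPase-activating protein for ARF6, was at 31.5, 39.4, 24.2 and 41.2 CPM with siATF4-2 and at 90.8, 90.2, 89.1 and 80.9 CPM with siATF4-3, against 94.3 to 102.8 CPM in TM siCtrl. All 4 siATF4-2 libraries lay below the other 20 tunicamycin libraries. The difference was -1.37 ± 0.10 (edgeR adjusted p = 3.44e-10), with 35.1% of the TM siCtrl level left with siATF4-2 and 90.4% with siATF4-3. CDK5 (7:150750899-150755052, minus strand, hg19), a kinase best known from neurons, was at 17.3, 16.9, 16.8 and 20.2 CPM with siATF4-2 and at 30.1 to 33.1 CPM with siATF4-3, with TM siCtrl at 29.9 to 32.3 CPM. Its difference was -0.83 ± 0.07 (edgeR adjusted p = 7.72e-12), and tunicamycin itself did not change it by the test (0.04). ESCO2, a cohesin acetyltransferase picked out after its values were seen, went the other way, with means of 16.4 CPM and 7.02 CPM and a difference of 1.23. Against TM siCtrl it rose by 0.99 with siATF4-2 and differed by -0.24 with siATF4-3, which was not called.

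At 13 of the 2109 genes the oligos were called against TM siCtrl in opposite directions, 9 lowered by siATF4-2 and raised by siATF4-3 and 4 the reverse. PLCB1 (20:8112912-8865547, plus strand, hg19), phospholipase C beta 1, was at 4.17, 3.55, 2.73 and 4.24 CPM with siATF4-2 and at 13.4, 10.4, 11.7 and 11.7 CPM with siATF4-3. TM siCtrl lay between them at 6.09 to 9.56 CPM, and no siATF4-2 library reached it. Against TM siCtrl, PLCB1 fell by 1.01 with siATF4-2 and rose by 0.67 with siATF4-3 on the log2 scale, and the direct difference was -1.68 ± 0.17 (edgeR adjusted p = 9.10e-09). C2CD2 was at 28.5, 28.1, 24.4 and 29.1 CPM with siATF4-2, at 48.5, 46.0, 43.3 and 40.9 CPM with siATF4-3, and at 33.1 to 39.3 CPM in TM siCtrl. The 3 C2CD2 groups did not overlap, and the direct difference was -0.70 ± 0.08 (edgeR adjusted p = 1.39e-08). RBP7, a retinol-binding protein, had calls in the same directions, with a difference of -1.07 ± 0.19. In reverse, XDH, xanthine dehydrogenase, rose by 0.22 with siATF4-2 and fell by 0.42 with siATF4-3, a difference of 0.63 ± 0.10. The other 3 of that kind were FAM122B at 0.45, STX3, a syntaxin, at 0.45 and KIAA1432 at 0.38. The 2 comparisons against TM siCtrl share their control libraries, so a shift of those libraries moves both values in the same direction, and the opposite signs are given as each comparison's own call.

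**Figure D3:**
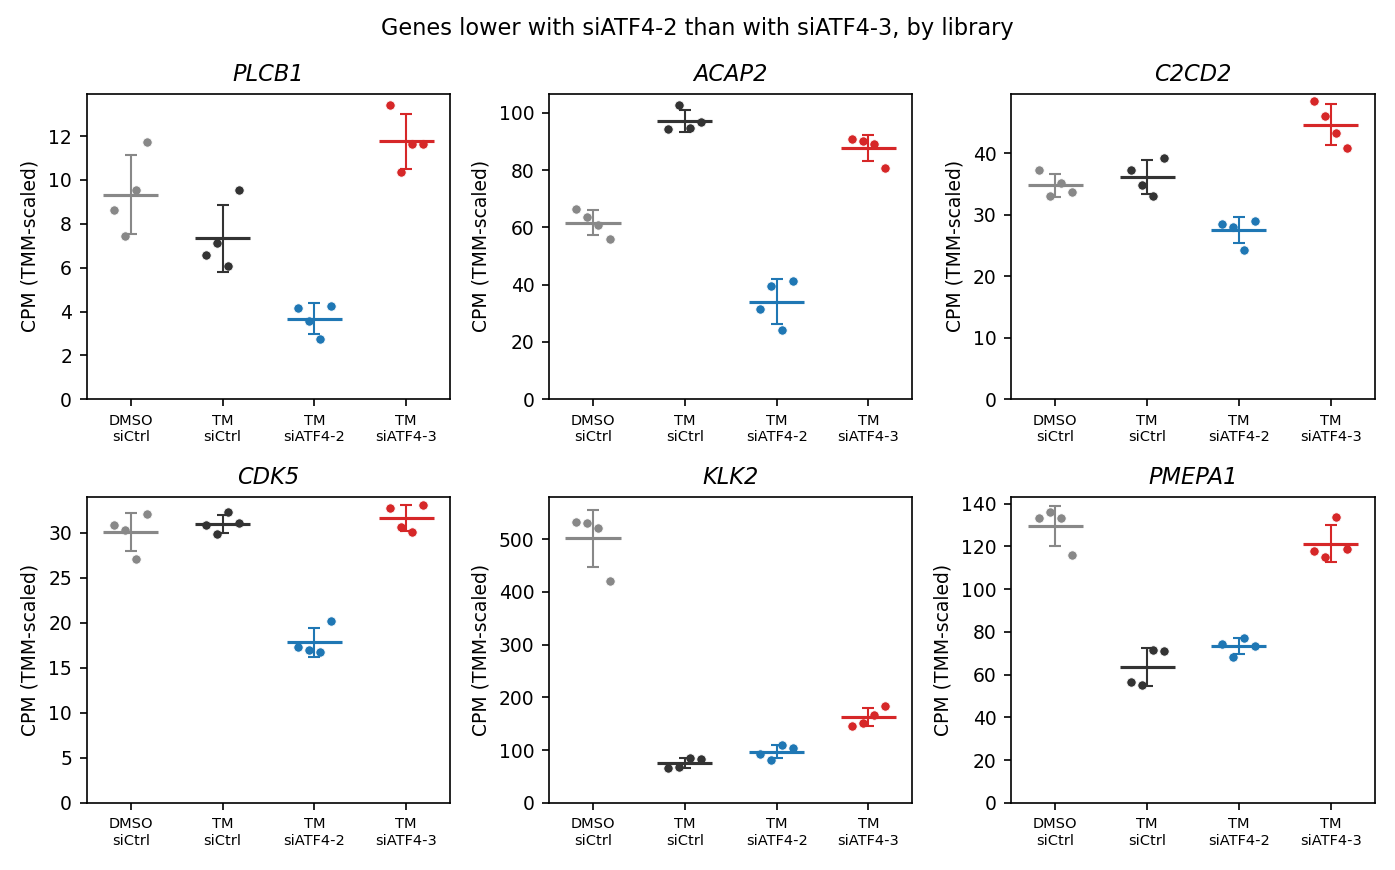
CPM (TMM-scaled, linear axis from 0) of 6 genes that were lower with siATF4-2 than with siATF4-3, in the 4 libraries each of DMSO siCtrl, TM siCtrl, TM siATF4-2 and TM siATF4-3. Points are libraries, horizontal lines means and bars 1 SD. In PLCB1, ACAP2, C2CD2 and CDK5 the siATF4-2 points lie below TM siCtrl, while in KLK2 and PMEPA1 they do not.

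Among the genes with the largest positive differences between the oligos, several outside the lists also belonged to the tunicamycin-induced set. COL16A1, a fibril-associated collagen, was at 13.5, 8.69, 7.23 and 29.2 CPM with siATF4-2 and at 2.25, 1.71, 1.43 and 5.26 CPM with siATF4-3, a difference of 2.44 ± 0.44 (edgeR adjusted p = 0.000483). COL16A1 was highest in replicate 4 of both groups and did not pass in the fit of 8 libraries (adjusted p = 0.0733). THSD4, a microfibril-associated matrix protein, differed by 1.63 ± 0.19 and ARHGEF2, a GTPase exchange factor bound to microtubules, by 1.36 ± 0.15. DUSP27 was at 17.1 to 24.1 CPM with siATF4-2 and 5.83 to 8.74 CPM with siATF4-3, and its groups did not overlap. All 4 of these genes fell against TM siCtrl with either oligo. COL16A1 kept 18.0% of its TM siCtrl level with siATF4-2 and 3.27% with siATF4-3. THSD4, ARHGEF2 and DUSP27 kept 39.1%, 36.7% and 35.7% with siATF4-2, and 12.75%, 14.2% and 12.6% with siATF4-3. On the lower side, CBLN2, a synaptic organiser, was at 2.24 to 2.75 CPM with siATF4-2 and 4.04 to 5.68 CPM with siATF4-3, both above TM siCtrl at 0.363 to 0.713 CPM. SOX8, a transcription factor, and CHRNA2, a nicotinic receptor subunit, differed by -0.87 ± 0.15 and -0.87 ± 0.17, and both rose against TM siCtrl with either oligo. DHX58, the RNA sensor LGP2, was at 1.23 to 1.96 CPM with siATF4-2 and 2.79 to 4.12 CPM with siATF4-3, a difference of -1.13 ± 0.23 (edgeR adjusted p = 0.000422). The sensors DDX58 (RIG-I) and IFIH1 (MDA5) were also lower with siATF4-2 than with siATF4-3, at -0.45 ± 0.12 and -0.41 ± 0.10. Against TM siCtrl, DHX58, DDX58 and IFIH1 differed by -0.08, 0.02 and 0.15 with siATF4-2, none of them called. With siATF4-3 they rose by 1.05, 0.47 and 0.56, all called. DHX58 is not a member of the list of interferon-stimulated and double-stranded RNA response genes. That list gave 3 lower calls in 25 (12.0%, beside 6.20% over all genes), DDX58, IFIH1 and USP18, and 1 higher, with a median of -0.03. The RNA interference machinery gave 1 higher and 3 lower calls in 16, with a median of 0.05. XPO5, the exporter of pre-miRNAs, was higher with siATF4-2 (0.46 ± 0.07). AGO2, the slicing Argonaute, and TNRC6A, its silencing partner, were lower (-0.30 ± 0.06 and -0.25 ± 0.05), as was RAN, a nuclear transport GTPase (-0.15 ± 0.04).

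Seen against all other tunicamycin libraries, siATF4-3 was the more extreme oligo. All 4 siATF4-3 libraries lay below the other 20 tunicamycin libraries (TM siCtrl, PERK inhibitor, both PERK siRNAs and the other ATF4 oligo) at 842 genes (5.88%) and above them at 577 (4.03%). For siATF4-2 these counts were 39 (0.272%) and 49 (0.342%). The 20 other libraries include those of the other ATF4 oligo. A gene that both oligos moved the same way could therefore count only for the oligo that moved it further. The counts thus restate in part the direct difference between the oligos. The difference between the oligos' counts was not tested.

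Within each oligo group, some genes varied with ATF4 from library to library. After centring log2 CPM on each oligo group, the 6 genes of highest Pearson r with ATF4 over the 8 libraries, among 9459 ranked, were ENTPD4 (0.993), ATF5 (0.992), TRIM21 (0.987), PGD (0.987), WDTC1 (0.985) and ASNS (0.978). They were chosen for this likeness, so r is a description. The libraries share depth and scaling, and replicate 4 was the highest of its group for ATF4 and for each of the 6 with both oligos. ATF5, which was not called between the oligos, was at 28.8, 26.9, 26.0 and 43.1 CPM with siATF4-2 and at 30.6, 27.7, 28.6 and 34.8 CPM with siATF4-3. PGD, of the pentose phosphate pathway, was likewise not called between the oligos, at -0.07 ± 0.06, but without siATF4-2 replicate 4 it was called lower, at -0.18 (edgeR adjusted p = 0.0151).

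**Figure D4:**
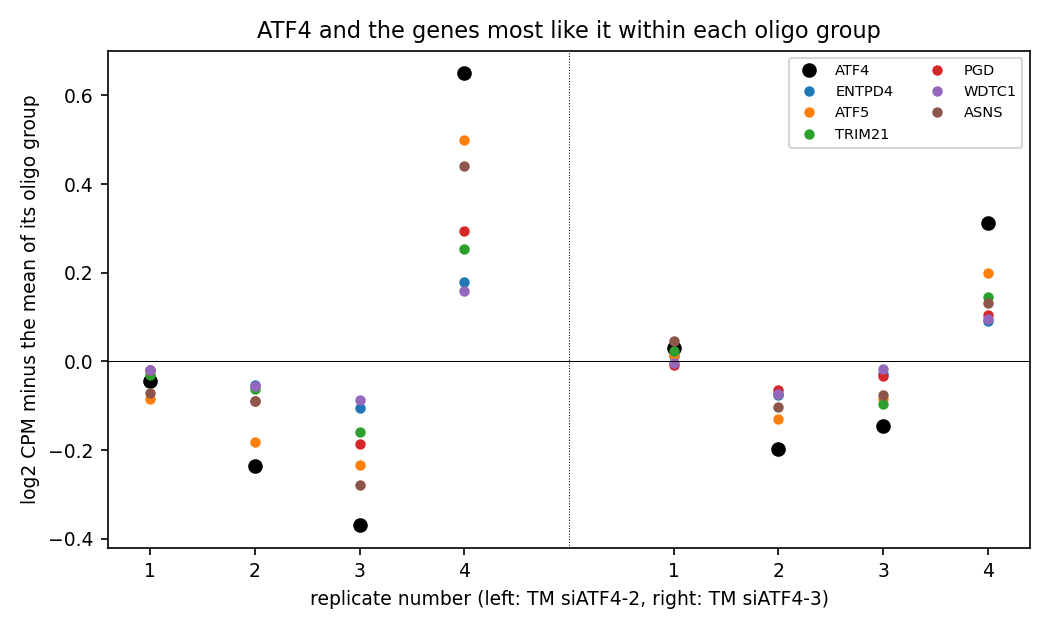
Log2 CPM minus the mean of its oligo group (y axis) for ATF4 and the 6 genes most like it, by replicate number (x axis, siATF4-2 left and siATF4-3 right of the dotted line). Each point is 1 library, and in both groups replicate 4 is the highest for all 7 genes.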

How the data were processed

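Strand-specific paired-end RNA sequencing libraries were made from LNCaP cultures of 4 independent experiments, per the labels. The authors deposited raw counts per gene, with each gene's hg19 position and exon length. The submitters' processing notes name featureCounts 1.5.0-p1, DESeq2 1.10.1 and the aligner TopHat2 2.1.0, while their settings, the annotation and the use of strand were not given in the sources used here. Reads of overlapping genes can therefore be mixed, which concerns 19 of the 116 named genes. The 6 tables were joined by gene (25369 genes), and the line without a gene name (0 counts) was left out.

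All 28 libraries entered 1 edgeR 4.0.16 fit in R 4.3.3 with 7 group means, filterByExpr (14314 genes), TMM factors and the robust two-sided quasi-likelihood test. SE is the log2 difference divided by the square root of F. Benjamini-Hochberg adjustment ran over all genes tested. On simulated data 95 of 100 genes changed 2-fold and 78 of 100 changed 1.5-fold were called between the oligos, with 10 unchanged genes among 183 calls (14074 genes).

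Named genes were ATF4, FAM129A and EIF2AK3. To them were added the 12 highest and 12 lowest called log2 differences without overlap (mean log2 CPM no lower than 1). So were up to 4 called genes per list, up to 4 per direction of opposite calls and up to 4 per oligo outside all other tunicamycin libraries, and the 6 genes most like ATF4 (mean log2 CPM no lower than 3). The members and lists were chosen with earlier results of these data known. Alternatives were other scaling factors and filters, fits of 8 or 12 libraries, limma-voom (limma 3.58.1), DESeq2 1.42.0, a replicate block and each library left out. The p-values measure the spread between these libraries. Some results are not reported here.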

Additional observations from a re-analysis of the deposited data

Results flagged for a closer look

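In 232 sets of 4 libraries (116 named genes, 2 oligo groups), 13 had a highest or lowest library whose distance to the next exceeded Dixon's critical share of the range for 4 values, a limit that chance passes in about 1 of 20 sets. Of the 13, 12 concerned a replicate 4 library.

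With siATF4-2, replicate 4 stood high for CHAC1, at 20.96 CPM against 5.83 to 6.63 in the others, and for ATF5, at 43.1 against 26.0 to 28.8. It was also high for CDK5 at 20.2 (16.8 to 17.3), HMOX1 at 14.4 (12.5 to 12.8) and MSMO1 at 83.9 (57.4 to 61.8). The same library stood low for KIF2C, at 32.1 CPM against 37.6 to 38.5, and for VWF, at 10.7 against 15.5 to 16.5.

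With siATF4-3, replicate 4 stood high for CHAC1 at 4.29 CPM (1.43 to 1.92) and FADS2 at 1063 (855.6 to 876.2). It stood low for ACAP2 at 80.9 (89.1 to 90.8), CREB3 at 60.8 (71.1 to 72.3) and YME1L1 at 146.4 (162.9 to 165.9). Replicate 2 stood high for CEBPG, at 114.4 CPM against 104.4 to 105.5.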

How the results depend on the processing

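The direction of a named gene turned for ATF5 alone (0.03), which was never called: it ranged from -0.159 (without siATF4-2 replicate 4) to 0.113 with 1 library left out, was -0.011 without siATF4-3 replicate 2, and was -0.087 without replicate 4 of both oligos. Of all calls, 57.9% were higher with siATF4-2, but 49.7% of 1706 in the fit of 8 libraries, 53.5% with RLE factors and 53.7% with DESeq2. With the filter of 10 CPM, 48 genes were higher and 4 lower by 2-fold, and 49 were higher by 2-fold in the fit of 8 libraries, where ATF4 (1.05) missed the threshold. Without replicate 4 of both oligos, a setting chosen after seeing the data, 554 genes were lower, 57 higher by 2-fold, 662 lowered by the mean and lower with siATF4-3, and 390 raised by the mean and higher with siATF4-3. A direct difference of at least 1.5-fold left 192 and 7 genes lowered by the mean (lower with siATF4-3 and siATF4-2), 45 and 4 raised (higher with siATF4-3 and siATF4-2), 7 opposite, 10 called with siATF4-2 alone and 60 with siATF4-3 alone.

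The deviations of same-numbered libraries correlated at 0.062, 0.07, 0.082 and 0.302 between the oligos, at 0.072 to 0.218 between siATF4-2 and TM siCtrl and at 0.04 to 0.157 between siATF4-3 and TM siCtrl. Differently numbered libraries correlated at -0.189 to 0.082 between the oligos. For siATF4-2 with TM siCtrl the range was -0.091 to 0.028, and for siATF4-3 with TM siCtrl -0.128 to 0.056. The same-numbered correlations were all positive but not each was over 0.1, so the numbers were not taken as pairs. Any shift shared by same-numbered libraries therefore stayed in the spread of the main fit. With the replicate block, 2892 genes were called, including 2105 of the 2109, with 155 genes raised by the mean and higher with siATF4-2 and 28 opposite. The block changed the call of none of the 116 named genes.

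With each library left out in turn, 920 to 1263 genes were higher and 627 to 896 lower between the oligos, 51 to 110 and 14 to 23 by 2-fold. The classes held 747 to 1054 lowered by the mean and lower with siATF4-3 (48 to 84 with siATF4-2) and 410 to 683 raised and higher with siATF4-3 (46 to 107 with siATF4-2). Opposite calls numbered 9 to 15, siATF4-2 alone 98 to 169 and siATF4-3 alone 335 to 495. Against TM siCtrl, 3750 to 4076 genes were higher and 3549 to 3935 lower with siATF4-2, 4186 to 4493 and 4207 to 4456 with siATF4-3, and 4288 to 4612 and 4318 to 4577 in the mean. The causes of these shifts were not tested.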

Other observations

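Transcripts that host small nucleolar RNAs in their introns tended to lie lower with siATF4-2 than with siATF4-3. This group was put together after SNHG3, DANCR and C6orf48 had been seen among the called genes, so its counts are a description. Of 21 such transcripts tested, 10 were called lower with siATF4-2 and 1 higher, beside 6.20% lower over all genes. Leaving out those 3, 7 of 18 were called lower and 1 higher. SNHG1 differed by -0.63 ± 0.09 (edgeR adjusted p = 1.86e-05) and rose against TM siCtrl with both oligos, by 1.16 and 1.79. SNHG16 differed by -0.42 ± 0.06, with rises of 0.34 and 0.76. SNHG3 fell by 0.78 with siATF4-2 and differed by -0.13 with siATF4-3, a direct difference of -0.65 ± 0.14. DANCR fell by 0.24 with siATF4-2 and rose by 0.18 with siATF4-3. GAS5, a growth-arrest transcript of this group, differed by -0.19 ± 0.11, which did not pass (edgeR adjusted p = 0.254). SNHG6 was the 1 higher transcript, at 0.26 ± 0.07. How many of these reads are spliced host RNA and how many are intron-encoded small RNA was not tested.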
